A study of Mus musculus with 474 samples.

Results

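Complement is a system of plasma and tissue proteins that marks and attacks microbes and damaged cells. In its classical pathway the recognition protein C1q activates the serine proteases C1r and C1s, C1s cleaves C4 and C2, the resulting enzyme cleaves C3, and the late components, C7 among them, assemble into a pore in the target membrane. The C1 inhibitor Serping1 blocks C1r and C1s. The liver supplies most circulating complement, and macrophages, fibroblasts and adipocytes make part of it within tissues. The genes described here are 6 complement genes other than C1q, of 20612 genes in the deposited table: the proteases C1ra and C1s1, the classical pathway component C4b, the central component C3, the terminal component C7 and the inhibitor Serping1. They were chosen by symbol, with their levels by sex and generation and their correlation among animals in view, so these values are given as a description with no test. All 6 passed the filter on low counts.

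Their levels were measured by RNA-seq in skeletal muscle, which the study's methods name as gastrocnemius. The animals were Diversity Outbred mice, an outbred stock in which each animal carries its own mixture of the genomes of several inbred founder strains. There was 1 library per animal. The groups were set by the sex in the sample title and by a further number there, taken to be the outbred generation (17, 18, 19, 21 or 23), and each of the 10 groups held 45 to 50 libraries. The study's methods name generations 18, 19 and 21 but not 17 or 23, so this reading of the number is uncertain. Every animal was on a high-fat, high-sugar diet, given in the labels as 45% fat, and no group differed by an allele, a drug or an age stated in the labels, so sex and generation were the only differences between them that the labels gave.

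Total counts ranged from 35.9 to 165.7 M (M, mega) per library, with a median of 79.3 M, and library numbers fell in 5 blocks of consecutive numbers. The tissue label was checked against markers: the summed level of 8 myofibre genes ranged from 90336 to 187394 CPM (counts scaled to a library total of 1 M) in females and from 104626 to 169625 CPM in males. In 37 libraries (25 female, 12 male) the summed markers of lymphocytes or hepatocytes exceeded 5 CPM, against medians of 0.565 to 0.654 CPM for lymphocytes and 0.256 to 0.298 CPM for hepatocytes in males and females. In 4 libraries either Xist or Ddx3y, but not both, went against the sex on the label. In 1 further female library Ddx3y counts (0.133 CPM) stood beside an Xist level of 122.3 CPM, which matched its label. Because all values come from whole tissue, a lower level from fewer cells of a type and one from less RNA per cell cannot be told apart.

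C1ra and C1s1 encode the C1r and C1s proteases and lie beside each other on chromosome 6 in GRCm38, C1ra at 124512405 to 124523443 on the plus strand and C1s1 at 124530345 to 124542359 on the minus strand. C1ra had a lowest, median and highest level of 7.47, 15.9 and 24.3 CPM in females and 6.45, 15.3 and 24.4 CPM in males. C1s1 had 16.98, 34.3 and 54.6 CPM in females and 13.9, 32.2 and 52.5 CPM in males. The sexes overlapped over nearly their whole range for both genes. The fitted difference, male minus female, was -0.06 ± 0.02 (SE) for C1ra and -0.08 ± 0.02 for C1s1 on the log2 scale. The lowest animal for both genes was the same male of generation 21, with 6.45 CPM of C1ra and 13.9 CPM of C1s1.

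Per kilobase of exon, C1s1 stood above C1ra in every library. The ratio of C1ra to C1s1, both in CPM per kilobase, had a median of 0.489 and ran from 0.269 to 0.978, with medians of 0.485 in females and 0.496 in males. The SD of its log2 was 0.26.

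The promoter of C1s1 is shown because the gene shares its neighbourhood with C1ra and the pair was among the most correlated of the 6 genes. The promoters printed here are the 250 bases before the RefSeq start site (GRCm38.p6), each read on the strand of its gene. RefSeq promoters were at hand for C7, C3, C1ra and C1s1. They were searched on both strands for the androgen element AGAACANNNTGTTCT, the oestrogen element GGTCANNNTGACC, the STAT site TTCNNNGAA, the interferon-stimulated element GAAANNGAAA and the C/EBP site TTGCNNAA, where N is any base. Of 27025 promoters of the same length, these letters were present in 0.0037%, 0.0629%, 7.18%, 3.04% and 9.55%. Capitals mark a match. In C1s1 the match was to the C/EBP letters on the opposite strand, at bases 9 to 16 of the printed window. RefSeq also holds a second start of C1s1, at base 124542321, whose overlapping window had no match.
C1s1, chr6:124542360-124542609, minus strand: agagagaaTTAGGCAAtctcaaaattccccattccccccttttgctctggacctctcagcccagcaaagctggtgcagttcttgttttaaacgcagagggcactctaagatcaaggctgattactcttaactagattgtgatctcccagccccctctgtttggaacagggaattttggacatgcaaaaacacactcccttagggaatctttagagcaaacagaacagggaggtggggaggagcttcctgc
The window of C1ra held no match and is not printed, because the deposited start of that gene lies inside it. A match in a window with such background shares is a description of letters only.

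C4b, which encodes complement C4, the substrate of C1s, lies at 34728380 to 34743882 on chromosome 17 (minus strand), in the major histocompatibility region. Its level ran from 3.43 CPM through a median of 15.8 to 75.1 CPM in females and from 6.44 through 20.2 to 76.5 CPM in males. The sexes overlapped widely, and 69.9% of males stood above the female median. The fitted difference was 0.33 ± 0.07 on the log2 scale, a 1.26-fold higher level in males. Within single generations it lay between 0.25 and 0.48, but within library blocks it ran from -0.03 ± 0.12 in block 4 and 0.08 ± 0.14 in block 3 to 0.69 ± 0.17 in block 2. With the scores of 5 marker lists (macrophage, fibro-adipogenic, adipocyte, endothelial and myofibre) as covariates the difference was 0.59. The summed level of 8 adipocyte markers moved the other way, with a median of 122.0 CPM in females (15.1 to 885.1) and 80.8 CPM in males (9.24 to 429.2), and its part in the sex difference was not tested beyond that fit. C4b has a near-identical copy, C4a, with a median of 0.625 CPM in females and 0.639 CPM in males, and reads may have been divided between them, so the C4b values are uncertain to that extent.

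C3, the component on which all complement pathways meet, lies at 57203970 to 57228136 on chromosome 17 (minus strand). It was the most abundant of the 6 in CPM together with Serping1. Its level ran from 14.8 CPM through a median of 67.99 to 318.8 CPM in females and from 7.16 through 48.99 to 139.5 CPM in males. The sexes overlapped, and 77.8% of males stood below the female median. The fitted difference was -0.58 ± 0.07 on the log2 scale, a 1.49-fold higher level in females. Females were higher in all 5 generations, with differences of -0.67 to -0.44, and in all 5 blocks, with -0.76 to -0.48.

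The top of the female range of C3 held libraries with markers of other tissue. The highest, an animal of generation 18 with 318.8 CPM, also had the highest C4b of all females and 181.2 CPM of summed lymphocyte markers. The 25 females with raised lymphocyte or hepatocyte markers had a median C3 of 132.95 CPM, against 64.4 CPM in the other 210, and the 12 such males had 86.6 CPM against 47.8 CPM in the other males. Without these 37 libraries the sex difference of C3 was -0.45 and that of C4b 0.41. With the marker scores as covariates that of C3 was -0.40.
C3, chr17:57228137-57228386, minus strand: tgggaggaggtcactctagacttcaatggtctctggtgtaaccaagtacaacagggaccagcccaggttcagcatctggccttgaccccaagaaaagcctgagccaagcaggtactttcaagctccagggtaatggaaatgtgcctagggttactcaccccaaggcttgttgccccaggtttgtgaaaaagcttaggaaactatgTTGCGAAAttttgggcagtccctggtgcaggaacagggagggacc
This C3 promoter is shown because C3 had the largest SD of the 6 on the VST score after sex and generation. The capitals mark the C/EBP letters, 45 to 38 bases before the start.

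C7, which joins the growing membrane attack complex and anchors it in the target membrane, lies at 4988762 to 5063740 on chromosome 15 (minus strand) and showed by far the widest gap between the sexes among these 6 genes. Its level ran from 0.218 CPM through a median of 1.38 to 8.88 CPM in females and from 3.83 through 13.3 to 65.6 CPM in males. Every male stood above the female median. The ranges overlapped in 4 of the 5 generations and were apart in generation 23, with highest female and lowest male levels of 3.796 and 6.71 CPM. Over all generations 5 females stood above the lowest male, and 53 males (22.2%) stood below the highest female. The highest female, from generation 21, stood alone at 8.88 CPM, where the next highest female had 6.04 CPM. The highest male, from generation 23, had 65.6 CPM, and the highest male of any other generation had 41.3 CPM.

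The fitted difference for C7 was 3.18 ± 0.07 on the log2 scale, a 9.06-fold higher level in males. It lay between 2.94 ± 0.15 in generation 19 and 3.31 ± 0.16 in generation 23, and between 2.88 and 3.26 in the 5 library blocks. Female medians by generation ran from 1.22 to 1.74 CPM and male medians from 11.9 to 15.1 CPM. In counts, the lowest female library had 19 and the lowest male library 230, so that the female values carry the larger counting error. On the deposited VST score, a variance-stabilised value, the difference was 2.28. This score approaches log2 only at high counts, so 2.28 and 3.18 stand on unlike scales.

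In the 4 libraries whose Xist or Ddx3y went against the label, C7 was within the range of the labelled sex. The 2 labelled female, in which Xist was nearly absent, had 0.951 and 1.99 CPM of C7 and no Ddx3y counts. Of the 2 labelled male, 1 had 16.8 CPM of C7 beside raised Xist (13.4 CPM) and 93.7 CPM of Ddx3y. The other had 13.3 CPM beside neither Ddx3y nor Xist counts. In each of the 4 the other marker thus matched the label, and none carried the full pattern of the other sex. The female library with Ddx3y counts had 1.54 CPM. Leaving these 5 out gave the same difference of 3.18.
C7, chr15:5063774-5064023, minus strand: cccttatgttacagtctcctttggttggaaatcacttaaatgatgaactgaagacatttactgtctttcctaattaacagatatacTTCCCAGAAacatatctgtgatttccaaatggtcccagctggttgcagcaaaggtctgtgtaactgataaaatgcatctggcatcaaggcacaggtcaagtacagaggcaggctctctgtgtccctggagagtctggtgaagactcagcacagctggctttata
The C7 promoter is shown because C7 is the gene with the widest gap between the sexes. Its start in RefSeq was base 5063773 and its deposited start base 5063740. The capitals mark the STAT letters, at bases 87 to 95 of the window, and the androgen and oestrogen letters were not in this window, which says nothing on the receptors.

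Serping1, the C1 inhibitor, lies at 84765387 to 84775444 on chromosome 2 (minus strand). Its level ran from 39.7 CPM through a median of 56.5 to 76.1 CPM in females and from 33.1 through 56.1 to 82.1 CPM in males. The sexes lay on top of each other. The fitted difference was 0.00 ± 0.02 on the log2 scale, and within generations it ran from -0.04 to 0.07.

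**Figure D1:**
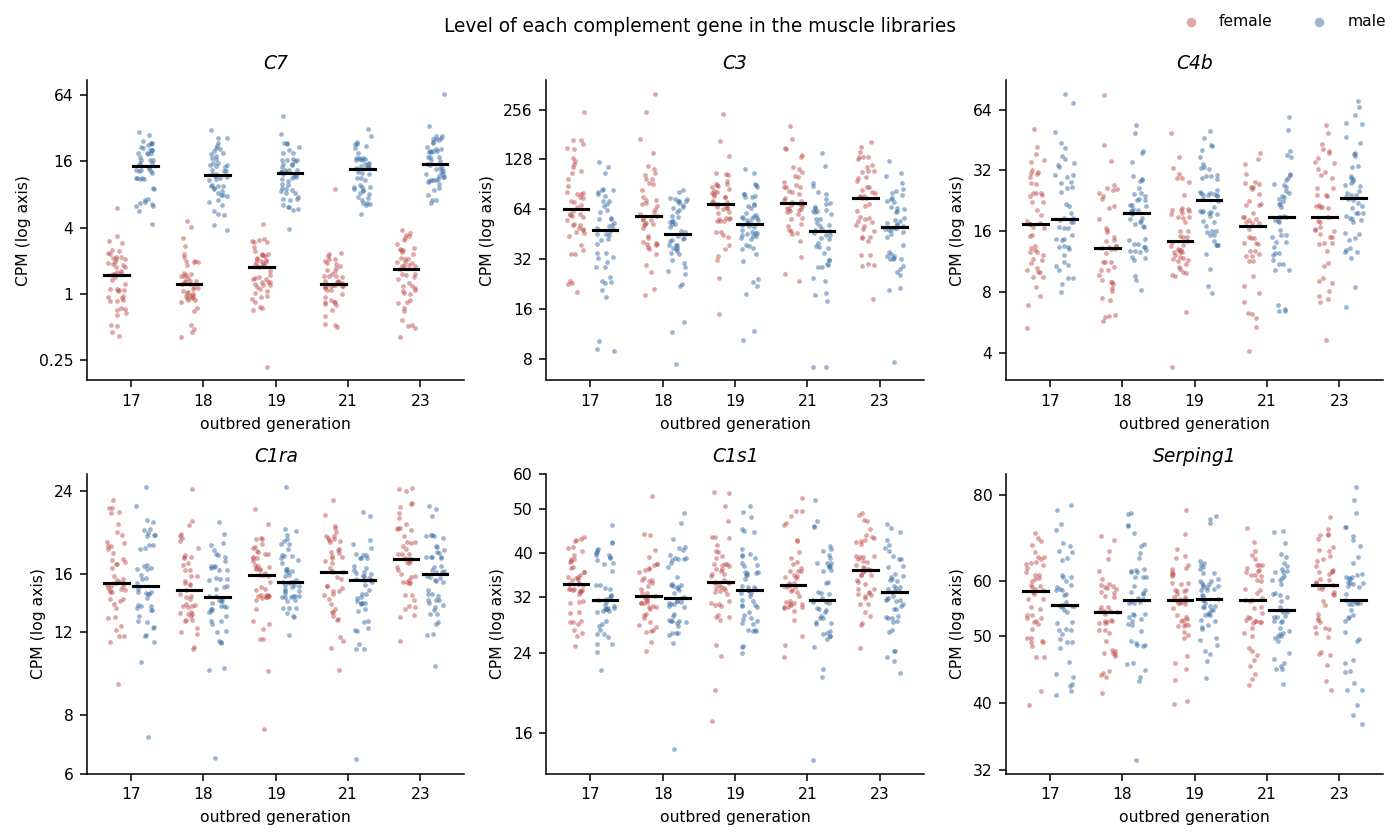
Level of each gene in CPM on a log axis, against outbred generation, for female (red) and male (blue) libraries, with 1 point per library and a black line at the median of each group. The C7 medians lie apart in every generation (1.38 and 13.3 CPM over all females and males) while the ranges of the sexes overlap in 4 of the 5 generations, C3 sits lower and C4b higher in males with wide overlap, and the other 3 genes overlap almost fully.

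**Figure D2:**
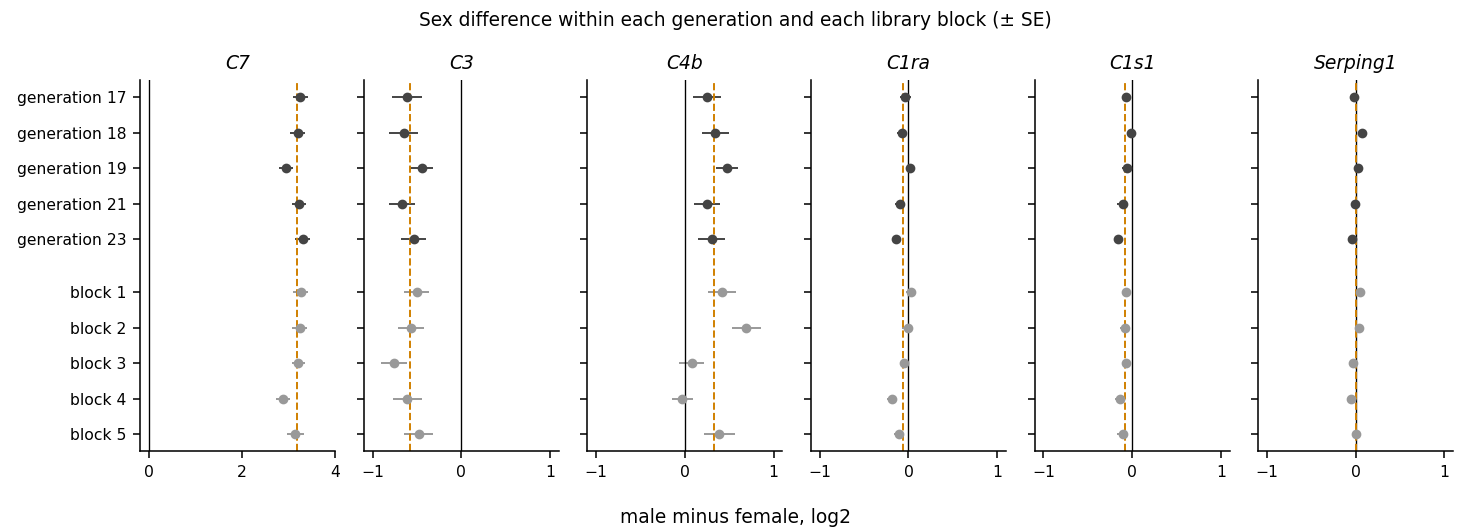
Sex difference of each gene (male minus female, log2, with SE bars) fitted within each generation (dark points) and each library block (grey points). The dashed line is the difference over all libraries and the C7 panel has a wider axis than the others. C7 lies between 2.88 and 3.31 in every split, C3 lies below 0 in every split, and C4b runs from -0.03 to 0.69 over the blocks.

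Set side by side per kilobase of exon, the medians over all libraries were 24.2 CPM per kilobase for Serping1, 10.96 for C3, 10.7 for C1s1, 5.21 for C1ra, 3.24 for C4b and 1.83 for C7. C3 and C1s1 could not be put in order, since C3 was the higher in 54% of libraries, 64.7% of the female and 43.5% of the male ones. C3 exceeded Serping1 in 24 libraries, all female, and C4b exceeded C1ra in 69. The place of C7 depended on sex: in no female did C7 exceed any of the other 5 genes per kilobase, whereas in males it exceeded C4b in 70.3% of libraries, C1ra in 48.5%, C3 in 15.1%, C1s1 in 5.02% and Serping1 in 1 library.

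Differences between generations were small beside the spread between animals. From the lowest to the highest generation, the fitted levels spanned 0.39 on the log2 scale for C4b, 0.34 for C7, 0.17 for C1ra, 0.12 for C3, 0.08 for C1s1 and 0.06 for Serping1. Generation 18 was the lowest for all 6 genes, and its differences from generation 17 were -0.22 for C4b, -0.17 for C7, -0.09 for C1ra, -0.09 for C3, -0.03 for Serping1 and -0.02 for C1s1. Generation 23 was the highest for all 6, at 0.17 above generation 17 for C7 and for C4b, 0.08 for C1ra, 0.06 for C1s1, 0.03 for C3 and 0.02 for Serping1.

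The sex difference by generation rests on the levels with which these genes were chosen and is given without a test. Its range over generations was widest for C7, at 0.37 on the log2 scale, and narrowest for Serping1, at 0.12. Between library blocks, which the choice did not use, 0 of 6 were called (edgeR quasi-likelihood F-test, adjusted p from 0.0908 for Serping1 to 0.934 for C4b), against 47.4% of all genes, and DESeq2 and limma also called 0. At an unadjusted p, Serping1 (0.0476) passed 0.05. C1s1 passed in the fit without the 5 libraries set apart by Xist or Ddx3y (adjusted p = 0.0343) and in the one without libraries high in lymphocyte or hepatocyte markers (adjusted p = 0.0484), with block ranges of 0.09 and 0.10 on the log2 scale. The share of the VST variance that went with sex was 82.7% for C7, 12.2% for C3, 5.15% for C4b, 2.74% for C1s1, 1.33% for C1ra and 0.000357% for Serping1. Generation went with 3.52% or less in each.

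What remained after sex and generation differed strongly between the genes. The residual SD of the VST score was 0.72 for C3, 0.66 for C4b and 0.50 for C7, against 0.25 for C1s1, 0.24 for C1ra and 0.19 for Serping1. Of all genes tested, 97.8% had a smaller SD than C3 and 43.999% a smaller one than Serping1. Among the genes nearest to each in mean VST score these shares were 98.8% and 63.6%. On log2 CPM the SD within groups was 0.76 for C3, 0.73 for C4b and 0.71 for C7. It was 0.27 for C1ra and C1s1 and 0.20 for Serping1. The lower SD of C7 beside C3 and C4b was thus a matter of the VST scale. Over both sexes together, and so with the sex difference included, the highest level was 301.6-fold the lowest for C7, 44.5-fold for C3 and 2.48-fold for Serping1.

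Over all animals the 6 genes were correlated in one direction. All 15 pairs had a positive Pearson r of the VST residuals after sex and generation, with a median of 0.353. The highest were C1ra with Serping1 (r = 0.59, Spearman rho 0.62), a protease with its inhibitor, C4b with C1ra (r = 0.56, rho 0.56), and C1ra with C1s1 (r = 0.52, rho 0.45). The lowest was C7 with C1s1 (r = 0.20, rho 0.20), and C7 had no r above 0.33 with any of the other 5. Without the 2 libraries farthest from the median, the r of C1ra with Serping1 was 0.61 and that of C1ra with C1s1 was 0.48. These values are part of how the genes were chosen and carry no p.

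The pairs with C3 were tighter in females than in males. C3 with C1ra had r = 0.58 in females and 0.35 in males, and C3 with C4b had 0.57 and 0.37. This difference was not tested, and the lymphocyte-rich libraries were mostly female. Within blocks, C1ra with Serping1 ranged from 0.47 to 0.66 and C7 with C1s1 from 0.06 to 0.38. With the 5 marker scores also removed, all 15 stayed positive but were smaller, from 0.03 (C7 with C1s1) to 0.39 (C1ra with Serping1).

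**Figure D3:**
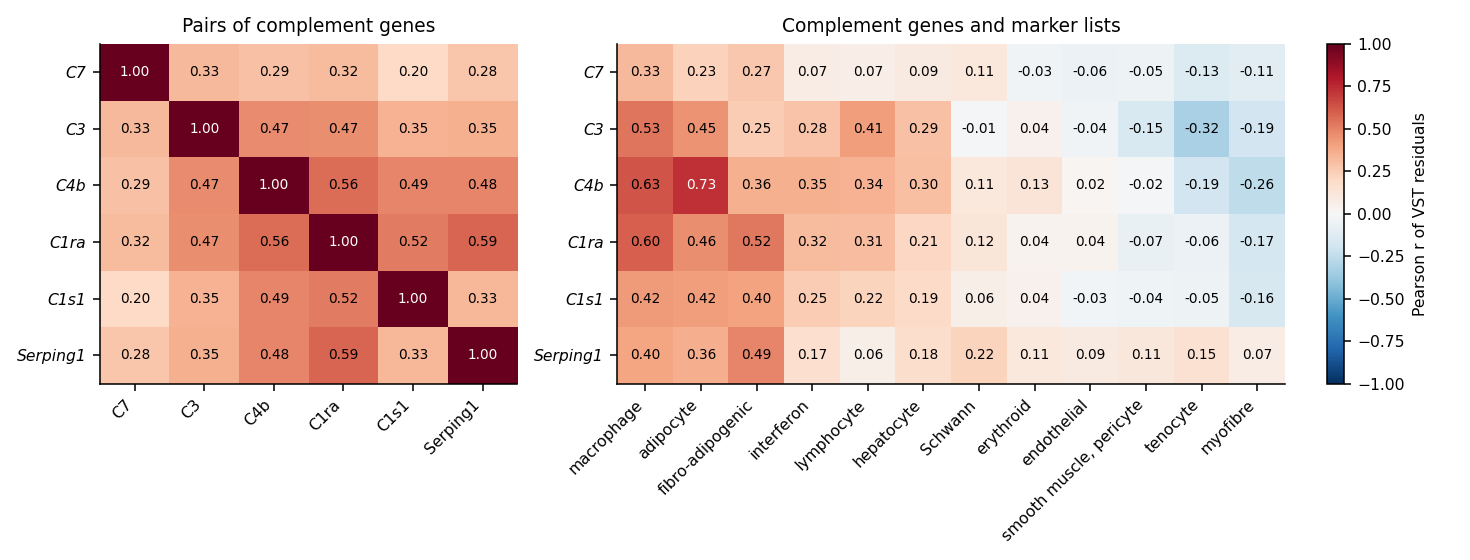
Pearson r of VST residuals after sex and generation over all animals, between the 6 genes (left) and between each gene and the mean of 12 marker lists (right), on a scale from -1 (blue) to 1 (red). The macrophage, adipocyte and fibro-adipogenic columns are positive for every gene, and so are the interferon, hepatocyte and lymphocyte columns. The highest value is that of C4b and adipocyte markers (0.73).

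Against the cell type markers, each of the 72 pairs of a gene and a marker list was tested by a 2-sided permutation test with 100000 resamples, for r and for rho, with Benjamini-Hochberg adjustment over the 72. In 46 pairs both passed 0.05, and 38 of these were positive. Weak correlations also passed, such as C7 with Schwann cell markers (r = 0.11, rho 0.11, permutation adjusted p = 0.0325 and 0.0319). The share of all genes that would pass with these lists was not computed. The count of 46 therefore does not show that these genes differ from other genes. Adjusted values of 2.32e-05 for r are the smallest these permutations could give. C4b stood closest to adipocyte markers (r = 0.73, rho 0.73, permutation adjusted p = 2.32e-05 and 2.25e-05), with 0.74 in females, 0.72 in males and 0.57 to 0.79 over the blocks. C4b also followed macrophage markers (r = 0.63, rho 0.61). C1ra followed macrophage markers (r = 0.60, rho 0.60) and fibro-adipogenic markers (r = 0.52, rho 0.56). Without the 2 libraries farthest from the median these values were 0.72, 0.61, 0.64 and 0.54.

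C3 stood closest to macrophage markers (r = 0.53, rho 0.52), with 0.63 in females and 0.43 in males and 0.42 without the libraries high in lymphocyte or hepatocyte markers. Adipocyte markers came next (r = 0.45, rho 0.43), with 0.59 in females and 0.30 in males. Of the 8 adipocyte markers 7 were lower in males, with a median difference of -0.59 on the log2 scale beside the -0.58 of C3, and their part in the sex difference of C3 was not tested beyond the fit with marker scores. Its r with lymphocyte markers was 0.41 over all libraries and 0.10 without those 37. Its r with tenocyte markers was negative (r = -0.32, rho -0.27, permutation adjusted p = 2.32e-05 and 2.25e-05). C1s1 had similar values with macrophage (r = 0.42, rho 0.43), adipocyte (0.42, rho 0.43) and fibro-adipogenic markers (0.40, rho 0.40). Serping1 stood closest to fibro-adipogenic markers (r = 0.49, rho 0.49). C7 had the weakest links, with r = 0.33 for macrophage (rho 0.32) and 0.27 for fibro-adipogenic markers (rho 0.29), and the fibro-adipogenic value was 0.14 in females and 0.41 in males. All pairs named here passed for both r and rho, apart from lymphocyte markers without the 37 libraries, which was not tested.

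The genes most like each member over all animals were taken from all genes tested, leaving the members out, and are given by r as a description. For C7 they included the kinase Dapk1 (r = 0.45), the secreted ribonuclease Rnase4 (0.45), the macrophage scavenger receptor Cd163 (0.40) and the angiotensin-converting enzyme Ace (0.40). The r with Ace was 0.22 in females and 0.56 in males. For C3 they were the heparan-cleaving enzyme Hpse (0.52), the semaphorin Sema4a (0.52), the kinase Syk (0.52), the lectin Cd209b (0.51) and the cytochrome Cyp2e1 (0.51). All 5 had a higher r with C3 in females (0.60 to 0.65) than in males (0.36 to 0.43), a difference that was not tested.

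For C4b they were Cfb, factor B of the alternative pathway (0.75), the secreted matrix protein Ccdc80 (0.73), the lipid droplet proteins Cidec (0.72) and Plin1 (0.71), and the adipokine Adipoq (0.71). For C1ra they were the macrophage growth factor receptor Csf1r (0.60), the C1q chains C1qc (0.57) and C1qb (0.56), Pld4 (0.56) and the matrix protein Dpt (0.56). For C1s1 they included Dpt (0.45), Cfb (0.43), Ankef1 (0.41) and the plasma protein S gene Pros1 (0.41). For Serping1 they were gelsolin, Gsn (0.60), the guidance ligand Slit3 (0.57), the endocytic receptor Lrp1 (0.57), Ecm1 (0.55) and Serpinf1 (0.55). Of the 20 nearest genes of each member, Cfb was on the lists of 3 members (C4b, C1ra and C1s1).

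Neighbours on the chromosome differed widely in their correlation with these genes. Distances are between the lower coordinates. The closest pair, C1ra and C1s1 (17.9 kb), had r = 0.52. Of all genes tested, 4.21% had an r above 0.3 with C1ra, 1.39% with C1s1, 6.08% with C4b and 0.308% with C7. C7 and C6, the component that acts just before it, lie 261.6 kb apart and had r = -0.09. C4b had r = 0.75 with Cfb (127.99 kb) and 0.59 with C2 (134.2 kb), the other MHC complement genes, but 0.14 with its copy C4a (80.7 kb) and 0.12 with Cyp21a1 (72.97 kb), which failed the filter on low counts. C2 and Cfb overlap the gene model Gm20547, and reads may have been shared between them. C1ra had r = 0.39 with C1rl (19.3 kb) and C1s1 had 0.06 with the same gene (37.2 kb).

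The other complement genes were taken from a list of 52, of which 37 were in the table and all of these were tested. The other 15 were not analysed here. In the test between the sexes 20 of the 37 passed (edgeR quasi-likelihood F-test, Benjamini-Hochberg over all genes tested), where 55% of all genes did. Higher in males were 7 (24.4% of all genes) and lower 13 (30.6% of all genes), so the counts lie near the background. With scaling by the library total alone they were 5 and 18. The median difference over the list was -0.08 on the log2 scale, against -0.01 over all genes tested. By role, 3 of 11 initiating genes passed, 2 of 3 genes of the alternative pathway, 1 of 2 terminal genes, 8 of 12 regulators and 6 of 9 receptors.

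Differences of at least 1.5-fold were called for 5 of the 37, against 5.3% of all genes. Cfd, the alternative pathway protease factor D, known as adipsin for its release by fat cells, ran from 4.52 CPM through a median of 36.4 to 257.99 CPM in females and from 1.09 through 16.4 to 102.1 CPM in males. It fell by 1.24 ± 0.10 on the log2 scale in males (edgeR adjusted p = 8.48e-30), and it is one of the adipocyte markers. Cr2, the complement receptor of B cells and follicular dendritic cells, fell by 2.22 ± 0.32 (edgeR adjusted p = 5.77e-11), but its medians were 0.0356 CPM in females and 0.0325 CPM in males, with single libraries up to 54.4 and 15.8 CPM. Itgax, an integrin chain of dendritic cells and macrophages, fell by 0.60 ± 0.11. All 6 lymphocyte markers were also called lower in males, with a median difference of -1.90 on the log2 scale, and 25 of the 37 libraries high in lymphocyte or hepatocyte markers were female. Without these 37, Cr2 failed the filter on low counts and Itgax had a difference of -0.27 ± 0.10 (edgeR adjusted p = 0.0204). Cpn1, a carboxypeptidase that inactivates the complement peptides, rose by 0.99 ± 0.18 at medians of 0.0281 and 0.0687 CPM, and Vsig4, a macrophage receptor for fragments of C3, rose by 0.63 ± 0.10 at 0.156 and 0.243 CPM. Cr2, Itgax, Cpn1 and Vsig4 were thus all near the lower end of what these libraries could measure. In the fit without the 37 libraries high in lymphocyte or hepatocyte markers, Cfd had a difference of -1.20 ± 0.10. Cpn1 had 1.33 ± 0.18 and Vsig4 0.62 ± 0.11 in that fit. No gene of the list had a sex difference of the size of that of C7.

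**Figure D4:**
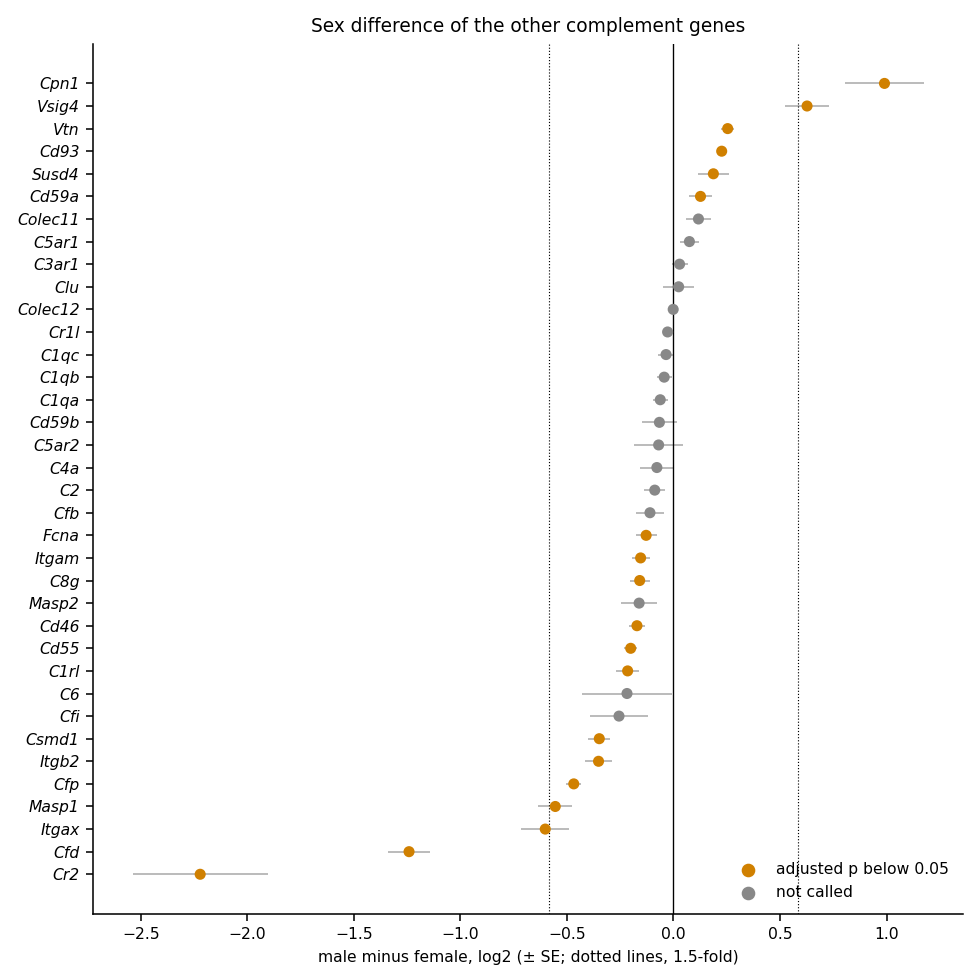
Male minus female difference on the log2 scale with SE bars for 36 of the 37 other complement genes, ordered by size. Orange points passed the edgeR test and grey ones did not, and dotted lines mark a 1.5-fold difference. Cr2 and Cfd lie farthest to the left (-2.22 and -1.24) and Cpn1 farthest to the right (0.99).

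Between generations 3 of the 37 passed, against 7.56% of all genes tested. Fcna, a ficolin that starts the lectin pathway, had a range of 0.33 on the log2 scale (edgeR adjusted p = 0.00263). C3ar1, the receptor of C3a, had a range of 0.29 (edgeR adjusted p = 0.000453), and Cpn1 had one of 1.07 (edgeR adjusted p = 0.0454). Generation 18 was the lowest for Fcna, at -0.28 relative to generation 17, and generation 21 was the lowest for C3ar1 and Cpn1. None of the 37 passed for the interaction of sex and generation (edgeR, DESeq2 and limma each called 0, against 0.531% of all genes in edgeR), and 2 had an unadjusted p under 0.05, against 5.97% of all genes. Between library blocks 11 passed, against 47.4% of all genes.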

How the data were processed

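Polyadenylated RNA from skeletal muscle was sequenced with 1 library per animal. The authors aligned both mates of each read pair as single reads to a transcriptome of the founder strains and deposited unnormalised expected counts per gene, estimated with EMASE in GBRS, so a fragment can add more than 1. They also deposited a score, the variance stabilising transform (VST) of DESeq2. The study's methods also name a regression on batch, and whether it entered the deposited score was not given. A VST recomputed from the counts with no batch term had an r of 0.9975 or more with the deposited score over animals for each of the 6 genes, and above 0.999 for 53.8% of all genes. Software versions, wave and use of strand were not given in the sources used here. The submitters' processing notes name GRCm38, and 99.5% of starts equalled those of GENCODE M21.

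Sex and generation came from the titles. Samples were matched by animal number, and 2 pairs of columns stood in exchanged places relative to the sample list. Among them were the female library with Ddx3y counts and the male library without any, each in the place of the other. The column names were taken as right, so the identity of these libraries is less sure. Animals were the replicates, so p-values measure the spread between animals. Counts were rounded and tested in R 4.3.3 with edgeR 4.0.16 (quasi-likelihood F-test, TMM, filterByExpr with a minimum count of 10, Benjamini-Hochberg over 18823 genes, threshold 0.05); limma 3.58.1 and DESeq2 1.42.0 served as alternatives. The fits covered sex with generation, generation with sex, their interaction, and library block with both. The edgeR test was also run on simulated counts with few changed genes, the same dispersion for all genes and independent animals. These settings differ from the data, so that run does not measure error rates here. Correlations used VST residuals after sex and generation, in Python 3.11.15 with scipy 1.17.1. CPM used TMM-scaled totals, and levels per kilobase used the union of exons.

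Named genes were the 6 members, the 5 most correlated genes of each, fixed chromosomal neighbours, and other complement genes called between the sexes at 1.5-fold or more or between generations. Results of some genes are not reported here. The members and lists were chosen with earlier results of these data known. Sets of libraries left out and covariates tried are given with their effects in the closing section.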

Additional observations from a re-analysis of the deposited data

How the results depend on the processing

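The settings tried over all libraries were library total, RLE, no filter, a stricter filter, DESeq2, limma, and block or marker scores as covariates. A further fit left out the 5 libraries set apart by Xist or Ddx3y. The sex difference of each gene except Serping1, whose difference was 0.00, kept its direction. Each stayed within 1 SD between animals, except that limma gave 2.28 for C7 on the VST score, a scale unlike log2 at low counts. That SD was 0.76 for C3, 0.73 for C4b and 0.27 for both C1ra and C1s1. It is wider than their differences, so a vanished difference would also have stayed within it. Counting the fit without libraries high in lymphocyte or hepatocyte markers, C4b ran from 0.28 to 0.59 and C3 from -0.63 to -0.40. C1ra ran from -0.10 to -0.003 and C1s1 from -0.11 to -0.008. Within single splits the sign turned for C1ra, at 0.019 in generation 19 and 0.025 in block 1, and for C4b, at -0.027 in block 4. The cause was not tested. The stricter filter tested 12344 genes and called 4 other complement genes higher and 8 lower in males. It called 30 genes for the interaction of sex and generation, against 100 over all 18823, where DESeq2 called 10, limma 0 and the fit with marker scores 62. Without the libraries high in lymphocyte or hepatocyte markers, an alternative chosen after seeing the data, 5 other complement genes passed between generations. The median correlation among the 6 genes was 0.43 in females alone and 0.18 with marker scores removed. The other differences and counts stayed within 1 SD between animals or within 1.5 times the main count. Correlations among the 6 genes were judged by the SD of their values over single generations instead. By that measure 24 values of single pairs moved in the other settings. Correlations with marker lists were judged by their sign alone. No paired analysis was possible because each animal gave 1 library and its number occurs in 1 group only. At these depths single libraries gave as few as 19 counts for C7, which limits the precision of female levels.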

Other observations

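C6, the terminal component that acts before C7, was near its lower limit in most libraries, with medians of 0.215 CPM in females and 0.24 CPM in males, but exceeded 1 CPM in 57 female and 48 male libraries and reached 12.8 CPM. Over all animals it had r = 0.33 with C4b and r = -0.09 with C7, given as a description.

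The ratio of C1ra to C1s1 per kilobase reached 0.978 in 1 male, where the highest female had 0.787.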
